A study of Mus musculus with 2 samples.

Results

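The imprinted domains examined were the H19 and Igf2 domain on mouse chromosome 7 and the Igf2r domain on chromosome 17, which holds Igf2r, the antisense noncoding RNA Airn and the neighbouring transporter genes Slc22a2 and Slc22a3. The members were taken as every probe set that the platform annotation lists with one of these 6 genes. This gave 12 of the 45101 probe sets on the Affymetrix Mouse Genome 430 2.0 array, for 5 of the 6 genes, where the annotation names 18193 genes through probe sets of their own. No probe set was listed for Slc22a3, so it was not analysed here. Total RNA of mouse embryonic stem (ES) cells labelled as a Dnmt1 knockout (KO) was hybridised to 1 array, and total RNA of their control ES cells to 1 array. The title alone marks the KO sample, since both source names call the cells a control. The knockout allele, the strain, the number of clones, any feeder cells and the passage are not stated in the labels. The arrays were run to characterise the KO cells as a control in a wider study of ES cell differentiation.

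With 1 array per group, each value is a single measurement, replicate error is unknown, and no test was made. Signals are MAS5 signals, linear summaries of a probe set's perfect-match and mismatch probes. The floor, each array's own median signal, was 74.2 on the KO array and 60.9 on the control array, and a probe set below the floor on both arrays was given no ratio. The median gene was 1.34-fold brighter on the KO array as deposited, a log2 shift of 0.43, while the 9 hybridisation spike-in probe sets had a median log2 ratio of -0.07. The spike-in probe sets thus did not show the shift, and whether it is technical or a difference in the RNA was not tested. Ratios, always KO over control, are given relative to this shift unless called as deposited. Probe sets of the same gene differed in their log2 ratios with a pooled SD of 0.24 (4709 genes), which serves as a technical scale and covers no difference between cultures. Dnmt1, the targeted gene, had signals of 262.1, 56.8 and 20.0 on the KO array and 1949.1, 874.7 and 348.3 on the control array in its 3 probe sets. The labels do not say which of them lies in the deleted part. The ES cell markers Pou5f1 and Sox2 were far above the floor, at 3297.0 and 6962.0 on the KO array and 2689.7 and 5436.6 on the control array. All 10 listed ES cell markers were above both floors. Of them 3, the pluripotency factors Klf4 (log2 ratio 1.92), Nanog (1.30) and Esrrb (1.18), were at least 2-fold higher relative to the shift and as deposited. Esrrb counts here by its brightest probe set, and its mean over 3 probe sets was 0.84 ± 0.40 (SD). Over all genes, 1.09% were 2-fold higher relative to the shift and 4.92% as deposited. The ES cell markers did not move together. Of the 10, 5 lay above the shift and 5 below it, with a median of -0.03, and Utf1 was lowest at -0.62.

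Imprinted genes are expressed mainly from one parental copy, and the marks that tell the copies apart are patterns of DNA methylation that Dnmt1 copies after each round of replication. In the chromosome 7 domain, a control region between the genes is methylated on the paternal copy. CTCF binding to the unmethylated maternal copy insulates Igf2 from shared enhancers, so H19, a noncoding RNA, is transcribed from the maternal copy and Igf2, a fetal growth factor, from the paternal one. In the chromosome 17 domain, the control region is the Airn promoter inside an Igf2r intron. It is methylated on the maternal copy, and Airn transcribed from the paternal copy silences Igf2r there in most tissues and Slc22a2 and Slc22a3 in extraembryonic tissue.

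The sequences shown first are the microRNAs that lie inside the transcripts of the chromosome 7 domain, because the H19 probe set is also listed with one of them. In the RefSeq tables (assembly GRCm38.p6), the Mir675 hairpin of 84 bases lies inside the H19 interval and the Mir483 hairpin of 73 bases inside the Igf2 interval, all on the minus strand. The seed, bases 2 to 8, is in capitals, and the 4 seeds differ from each other.
mmu-miR-675-5p (chr7:142577112-142577133): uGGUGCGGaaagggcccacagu
mmu-miR-675-3p (chr7:142577078-142577099): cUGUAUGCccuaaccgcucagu
mmu-miR-483-5p (chr7:142654968-142654989): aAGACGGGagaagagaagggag
mmu-miR-483-3p (chr7:142654932-142654952): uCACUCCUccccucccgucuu
The mature microRNAs themselves were not analysed here.

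For the chromosome 17 domain, the promoters of the overlapping pair Igf2r and Airn are shown, since they are transcribed from opposite strands and CG dinucleotides are the sites that Dnmt1 acts on. Each run covers 250 bases before to 50 after the annotated RefSeq start in GRCm38.p6, and CG dinucleotides, which read the same on both strands, are in capitals.
Igf2r (chr17:12769657-12769956, minus strand): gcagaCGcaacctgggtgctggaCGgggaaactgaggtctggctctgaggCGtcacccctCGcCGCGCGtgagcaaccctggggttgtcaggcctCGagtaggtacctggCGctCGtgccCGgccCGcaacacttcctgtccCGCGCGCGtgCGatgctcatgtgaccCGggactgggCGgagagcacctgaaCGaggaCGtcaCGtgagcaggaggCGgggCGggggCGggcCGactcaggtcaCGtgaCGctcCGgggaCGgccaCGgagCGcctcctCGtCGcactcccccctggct
Airn (chr17:12741061-12741360, plus strand): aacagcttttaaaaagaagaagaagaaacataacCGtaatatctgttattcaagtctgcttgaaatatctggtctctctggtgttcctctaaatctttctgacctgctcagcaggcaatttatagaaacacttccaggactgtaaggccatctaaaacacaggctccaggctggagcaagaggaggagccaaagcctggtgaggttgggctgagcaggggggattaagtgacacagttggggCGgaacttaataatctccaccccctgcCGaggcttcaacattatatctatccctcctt
The Igf2r window held 34 CG dinucleotides, a number reached by 7.73% of the 32851 promoter windows in the table. The Airn window held 3, a number reached by 76.7% of them. This window ends 50 bases after the start, so its count does not describe the whole control region. At least 1 CG was present in 94.6% of all windows, and the median was 7. The 4 annotated Igf2 starts held 2, 14, 24 and 7 CG dinucleotides, in the order of transcription from the first start to the last, and the Slc22a2 and Slc22a3 windows held 8 and 5. No methylation was measured in this series, so these counts describe the sequence alone.

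H19 was the member with the large difference. Its single probe set, listed with both H19 and Mir675, had a signal of 5607.1 on the KO array and 493.8 on the control array. The KO signal was 75.6 times the floor of its array and the control signal 8.11 times, so the transcript was above the floor in both cultures and far brighter in the KO culture. The difference was 8.46-fold relative to the shift, a log2 ratio of 3.08, and 11.4-fold as deposited. Because the annotation names 2 genes for this probe set, its signal cannot be divided between H19 and Mir675. In bulk RNA, more cells that express H19 and more H19 RNA per cell cannot be told apart.

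Among the 20960 non-control probe sets above both floors, the H19/Mir675 probe set had the highest ratio. It was followed by Khdc3, a maternal-effect gene of the oocyte, with a log2 ratio of 3.05 (754.2 on the KO array and 67.7 on the control array). These ratios were closer to each other than the SD between probe sets of 1 gene. Rhox5, a homeobox gene of reproductive tissues, came next at 2.94. Of the 12230 genes above the floor on at least 1 array, 1.09% passed 2-fold upwards and 0.531% downwards relative to the shift, or 4.92% and 0.0981% as deposited. Of the 12 member probe sets, 8 were below the floor on both arrays and had no ratio. The floor is each array's median, and of all 45101 probe sets, 64 controls left out, 20960 were above both floors. Among the 4 member probe sets above both floors, the H19/Mir675 probe set was the 1 that passed 2-fold in either direction.

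**Figure D1:**
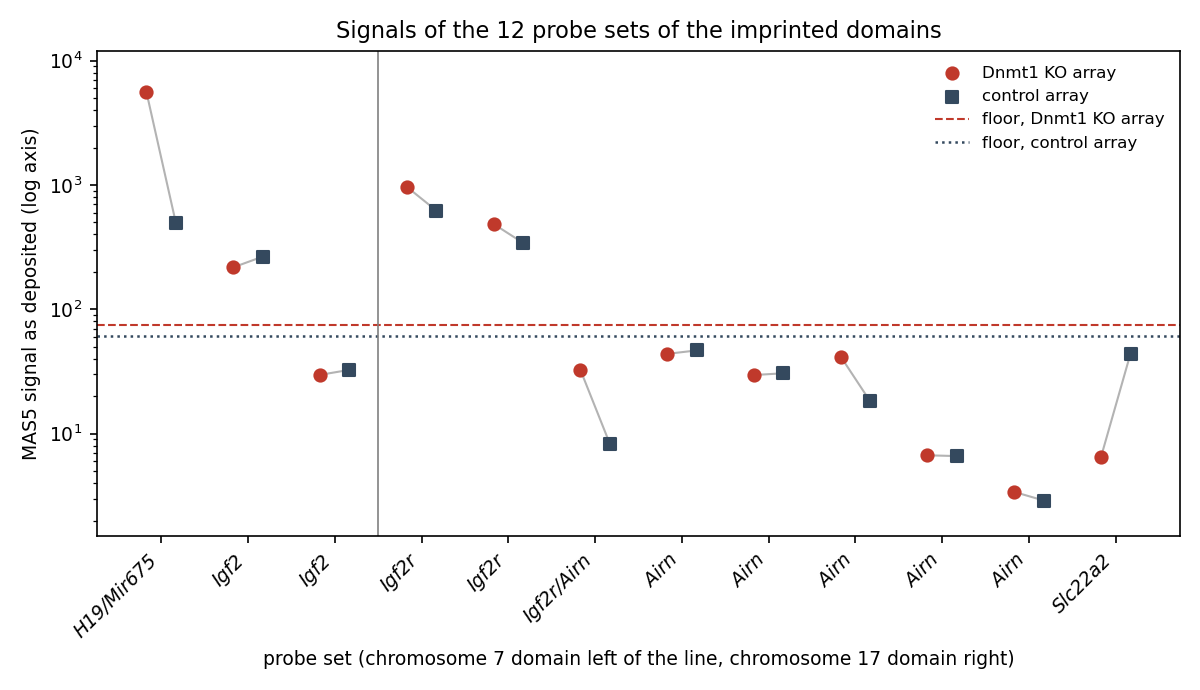
MAS5 signal (log axis) of each of the 12 probe sets on the Dnmt1 KO array (red circles) and the control array (dark squares), with each array's floor as a horizontal line. H19/Mir675 stands at 5607.1 on the KO array against 493.8 on the control array, both probe sets listed with Igf2r alone are above the floor on both arrays, and the Airn and Slc22a2 probe sets are all below it.

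Igf2 lay on the other side of the shift. Its brighter probe set had a signal of 217.4 on the KO array and 265.2 on the control array. The difference was 1.64-fold lower relative to the shift (log2 ratio -0.71) and 1.22-fold lower as deposited (-0.29), so it was lower on either scale but did not reach 2-fold. Of the 11003 genes above both floors, counting H19 by its shared probe set, 209 had a lower ratio than Igf2. The other Igf2 probe set was below the floor on both arrays, at 29.7 on the KO array and 32.6 on the control array, so the Igf2 ratio rests on 1 probe set. The log2 ratios of H19/Mir675 and Igf2 were 3.79 apart, a distance that no scaling by a constant changes.

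The genes beside the chromosome 7 domain did not share the H19 difference. Of the 5 nearest genes on each side that were above the floor on at least 1 array, none reached 2-fold with floored signals. Each gene counts here by its brightest probe set, and over all genes 1.09% were 2-fold higher and 0.531% lower. The log2 ratios of these neighbours, bounds included, ran from -0.89 to 0.70 with a median of -0.08. Syt8 had 24.6 on the KO array, below the floor, and 73.0 on the control array. Its ratio was thus -0.40 or below, and whether it passed 2-fold is not known. The adjacent gene on the H19 side, Mrpl23, a mitochondrial ribosomal protein gene, had a ratio of 0.17, with 1044.8 on the KO array and 691.2 on the control array. Beyond it, Lsp1, an actin-binding protein of white blood cells, had the lowest ratio of those above both floors, -0.89. Its signals were near the floor (74.6 on the KO array and 103.1 on the control array). On the Igf2 side, Igf2os, the RNA antisense to Igf2, was below the floor on the KO array at 62.9 and just above it on the control array at 63.5. Next to it, Ascl2, a maternally expressed trophoblast transcription factor, had the highest ratio, 0.70, with 0.81 ± 0.42 over its 3 probe sets (SD). Its brightest probe set had 246.2 on the KO array and 112.5 on the control array, and it was 2-fold higher as deposited. Another Ascl2 probe set was past 2-fold relative to the shift as well, at 1.28 (214.6 on the KO array and 65.7 on the control array). Among the listed neighbours, Ins2, Th, Tnni2, Tnnt3 and Trpm5 were below the floor on both arrays. Over chromosome 7 as a whole, the median was 0.04 (855 genes above both floors).

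Igf2r, the cation-independent mannose 6-phosphate receptor, which carries lysosomal enzymes and takes up Igf2 for degradation, stayed near the shift. Its brighter probe set had 966.3 on the KO array and 622.6 on the control array, a log2 ratio of 0.21, or 0.63 as deposited. Its other probe set had 485.8 on the KO array and 342.1 on the control array, a ratio of 0.08, or 0.51 as deposited. Both were higher on the KO array as deposited, by 1.55-fold and 1.42-fold, and within 1.16-fold of the median gene. The mean relative to the shift was 0.14 ± 0.09 (SD over 2 probe sets), and 2552 of the 11003 genes had a higher ratio than the brighter probe set.

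**Figure D2:**
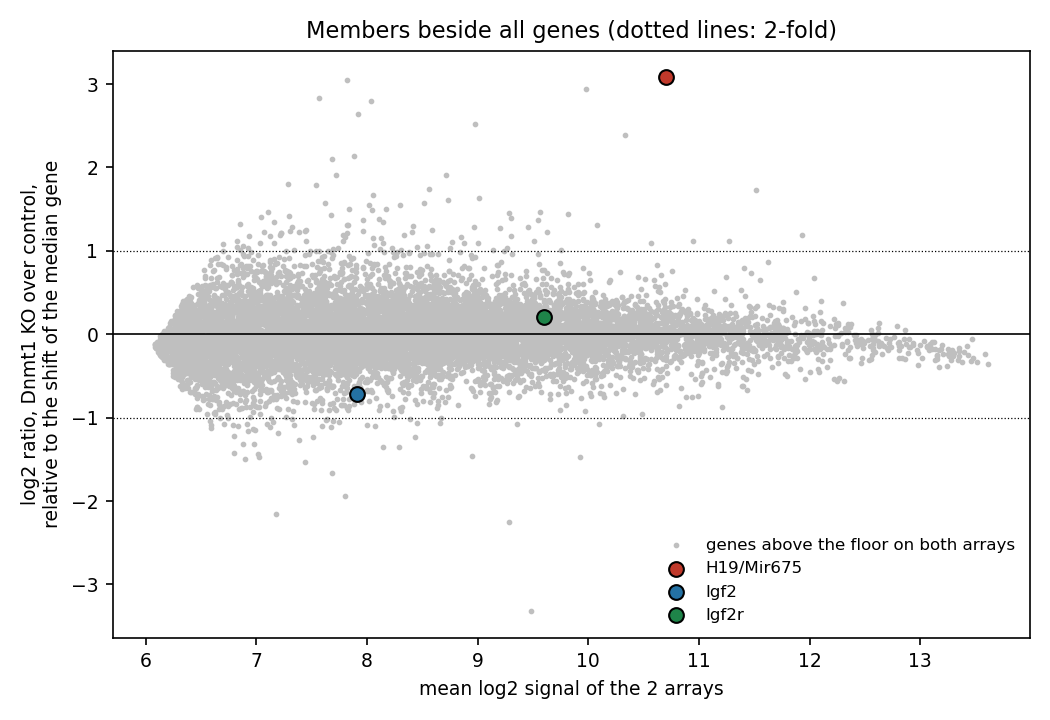
Log2 ratio of KO over control relative to the shift (vertical axis) against the mean log2 signal of both arrays (horizontal axis) for all genes above both floors, with the 3 measured members marked. H19/Mir675 lies at 3.08 at the upper edge, Igf2 at -0.71 and Igf2r at 0.21.

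Airn could not be measured above the floor on either array. Its 5 probe sets listed alone had signals of 3.4 to 43.8 on the KO array and 2.9 to 46.7 on the control array. As deposited, with the shift not taken off, 3 of them were brighter on the KO array and 2 dimmer. This split depends on the scale, and none of them was given a ratio. The probe set with the largest difference among these had 41.7 on the KO array and 18.2 on the control array, both below the floor. A further probe set, listed with both Airn and Igf2r, had 32.7 on the KO array and 8.3 on the control array and was likewise below the floor on both. Detection calls were not used here, so such signals show neither presence nor absence of the RNA.

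Slc22a2, an organic cation transporter best known from the kidney, had 6.5 on the KO array and 44.1 on the control array, below both floors, and was given no ratio. C030013G03Rik, a gene that lies within the span of the domain in the reference order, was also below the floor on both arrays (3.6 on the KO array and 2.6 on the control array). In all, 7 of the 9 probe sets of the chromosome 17 domain were below the floor on both arrays. The remaining 2 were those listed with Igf2r alone. Of the 7, 6 were listed with Airn. Over the whole array, 20960 of the 45101 probe sets, 64 controls left out, were above both floors, since the floor is each array's median. The 10 measured genes around this domain had log2 ratios of -0.27 to 0.35 with a median of 0.06. None reached 2-fold by its brightest probe set, beside 1.09% of all genes higher and 0.531% lower. The adjacent genes were Map3k4, a stress-activated kinase (0.04), and Agpat4, a phospholipid synthesis enzyme (0.09), on one side. On the other side were Pnldc1, an exonuclease that trims piRNAs (-0.27), and Mrpl18, a mitochondrial ribosomal protein gene (0.09). Igf2r at 0.21 lay inside the range of these neighbours, and the median over chromosome 17 was 0.03 (541 genes above both floors).

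**Figure D3:**
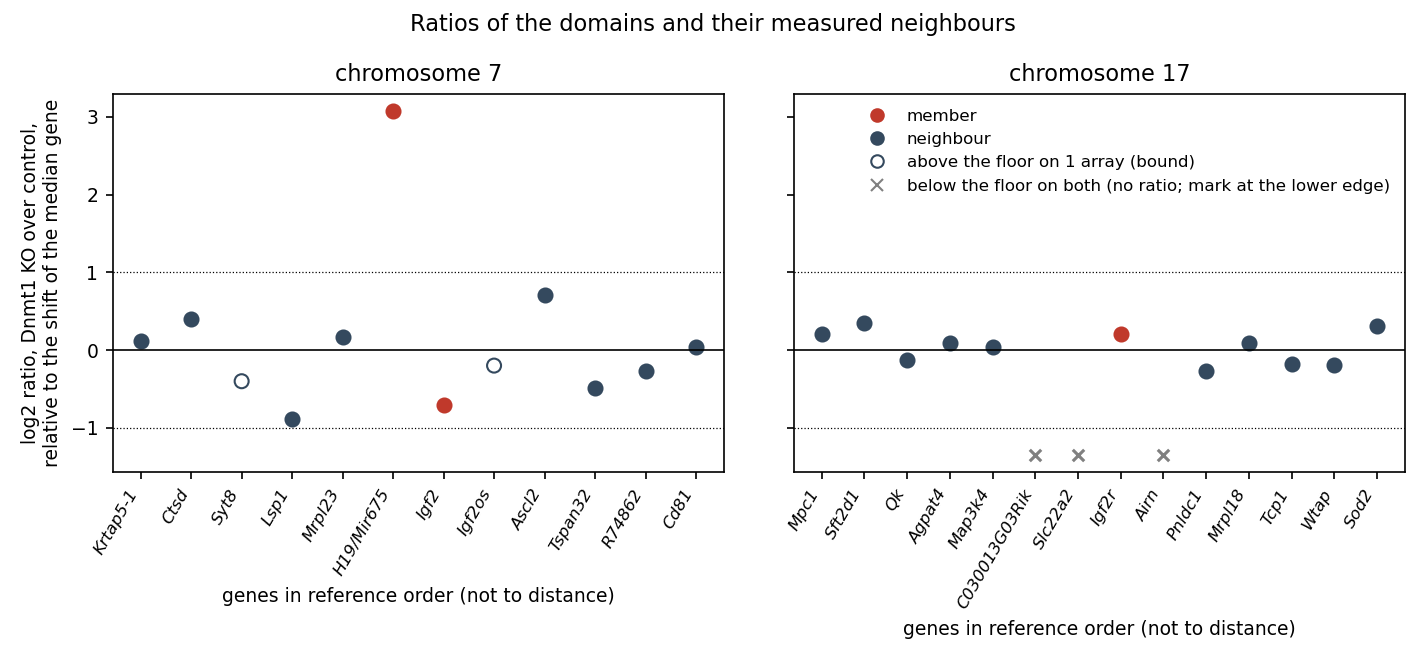
Log2 ratio of KO over control relative to the shift for the members (red) and the 5 nearest measured genes on each side (dark), in reference gene order on chromosomes 7 and 17. Open circles are bounds, and crosses at the lower edge mark genes below the floor on both arrays, which have no ratio. H19/Mir675 at 3.08 stands apart from its neighbours, whose ratios and bounds are drawn between -0.89 and 0.70, while Igf2r lies among its neighbours.

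The genes nearest to each measured member by the distance over the 2 log2 signals were looked up over these 2 arrays. For H19/Mir675 they were Rpl39l, a testis-enriched ribosomal protein paralog (3415.1 on the KO array and 484.5 on the control array), Rhox5 (3245.8 on the KO array and 314.1 on the control array) and Xbp1, which drives the unfolded protein response (2575.4 on the KO array and 895.0 on the control array). The nearest was 0.72 log2 units away, so no gene lay close to H19. For Igf2, Rps6ka3, Itga5 and 2500002B13Rik lay 0.05 to 0.06 log2 units away, and for Igf2r, Pcbp3, Rprd1a and Nabp1 lay 0.0065 to 0.02 away. With 2 arrays this is a likeness of 2 values only.

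Other imprinted genes gave a context for the direction of each parental class. Of 20 measured genes listed as maternally expressed, as H19 is, 2 were at least 2-fold lower and none 2-fold higher after the shift was taken off. Their median log2 ratio was -0.10, beside -0.01 over all genes, with 10 above the shift and 10 below it. As deposited, 2 were lower and 2 higher. Of the 12230 genes above the floor on at least 1 array, 6021 lay above the shift. Among those 12230 genes, 1.09% were 2-fold higher and 0.531% lower relative to the shift, or 4.92% and 0.0981% as deposited. Grb10, an adaptor that restrains insulin and IGF receptor signalling, had 331.8 on the KO array and 1176.5 on the control array (-2.25). Cdkn1c, a cyclin-dependent kinase inhibitor, had 678.4 on the KO array and 1397.3 on the control array (-1.47). Ppp1r9a was at -0.99. H19/Mir675 thus lay on the opposite side from Grb10, Cdkn1c and Ppp1r9a. It lay on the same side as Ascl2 (0.70), Rian (0.65) and Mirg (0.55), the highest ratios of that list. Of 18 measured paternally expressed genes, as Igf2 is, 3 were 2-fold higher and none 2-fold lower, 15 lay above the shift, and the median was 0.40. As deposited, 7 were 2-fold higher and none lower. Dlk1, a Notch-related membrane protein (1.55), Sgce, a sarcoglycan (1.22), and Peg3, a zinc finger protein (1.12), led this list. Igf2 at -0.71 lay below the lowest of these 18 genes, Gab1 at -0.48, which is on chromosome 8. These lists were written with earlier results of these data known, and the difference between the classes was not tested.

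The genes of proteins that act with Igf2 showed few RNA differences of 2-fold. Such differences were also few over all genes, with 1.09% higher and 0.531% lower relative to the shift. Igf1r, the receptor through which Igf2 signals growth, had 373.3 on the KO array and 390.0 on the control array, a log2 ratio of -0.49, and -0.42 ± 0.10 over 3 probe sets (SD). Insr, the insulin receptor, was at -0.59 in its brightest probe set and 0.02 in another, and it lies on chromosome 8, where the median was -0.37 (603 genes above both floors). The part of chromosome 8 in this and the following values from it was not tested. The signals of the other ligands, Igf1 and Ins2, did not reach either floor. IGF binding proteins hold IGFs outside the cell. Of their 6 measured genes, Igfbp5 was 2-fold lower relative to the shift (112.7 on the KO array and 190.3 on the control array, -1.18) but not as deposited (-0.76). None of these genes was 2-fold higher on either scale. Igfbp2 had 2312.1 on the KO array and 1535.2 on the control array (0.17), and Igfbp4 was at 0.19. All 4 measured genes of RNA-binding proteins listed for Igf2 and H19 lay between -0.36 and -0.08, with Igf2bp1, whose protein binds both RNAs, lowest.

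Among 14 measured relay genes downstream of the IGF receptors, Grb10 was the 1 that passed 2-fold relative to the shift. It was lower, as were 0.531% of all genes, and the list median was 0.00. The kinase Akt1 had the highest ratio, 0.57 in its brightest probe set, with 533.3 on the KO array and 266.6 on the control array, and 0.36 ± 0.19 over 3 probe sets (SD). It was 2-fold higher as deposited. Pik3r2, a regulatory subunit of PI 3-kinase that also lies on chromosome 8, was at -0.68.

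Igf2r works with the machinery of mannose 6-phosphate sorting, whose 12 measured genes had a median of 0.11. M6pr, the small, cation-dependent receptor that shares cargo with Igf2r, had 2133.6 on the KO array and 1475.7 on the control array, a log2 ratio of 0.11. Gga1, an adaptor that sorts these receptors at the Golgi, was at least 2.1-fold lower relative to the shift, from 44.7 on the KO array, below the floor, and 115.8 on the control array. As deposited the bound was 1.56-fold, short of 2-fold. The related Gga2 and Gga3 were at 0.11 and -0.13. Vps35, the retromer subunit that returns the receptors, was at -0.32 and lies on chromosome 8. None of 18 measured genes of lysosomal hydrolases, the cargo, passed 2-fold, and their median was 0.08. Passing 2-fold was rare over all genes too, at 1.09% upwards and 0.531% downwards relative to the shift. The cathepsins Ctsb (0.43), Ctsd (0.40) and Ctsa (0.35) had the highest ratios. Of the organic cation transporters related to Slc22a2 and Slc22a3, 3 were measured and none passed 2-fold. Slc22a5, a carnitine transporter, was at 0.42, Slc29a4 at 0.24 and Slc47a1 at -0.19.

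**Figure D4:**
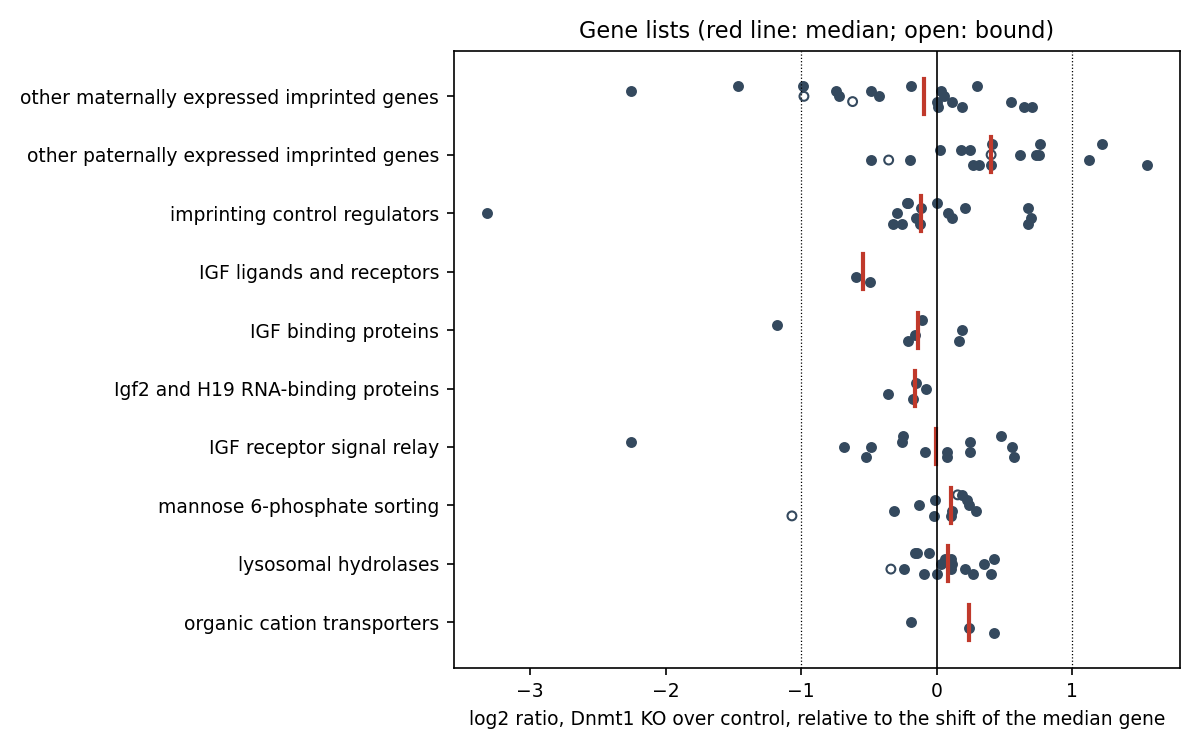
Log2 ratio of KO over control relative to the shift for the measured genes of 10 lists, with a red line at each list's median and open circles for bounds. Most genes lie within 2-fold (dotted lines), paternally expressed imprinted genes have a median of 0.40, and Dnmt1 is the point at -3.32 among the imprinting control regulators.

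Of the 16 genes listed as regulators of imprinting control regions, only Dnmt1 passed 2-fold relative to the shift (-3.32). Dppa3, a maternal factor that protects imprints in the zygote, was at 0.69, and Dnmt3l and Dnmt3a, of de novo methylation, at 0.67 each, and these 3 were 2-fold higher as deposited. Ctcf, the insulator protein of the H19 control region, had 1105.5 on the KO array and 1029.4 on the control array (-0.32) in its brightest probe set. Its other probe set had 881.6 on the KO array and 1101.7 on the control array (-0.75). Ctcf lies on chromosome 8. Zfp57, which protects methylated control regions, was at -0.12 and its partner Trim28 at -0.15.

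H19 is abundant in embryonic fibroblasts, endoderm and trophoblast, so the markers of these cells are given beside its value. Of 14 fibroblast markers with a probe set, 6 were below the floor on both arrays, including Col3a1, Dcn, Lum and Postn. The summed signal of the 14 was 6981.7 on the KO array and 5509.5 on the control array, 1.27-fold higher as deposited and 0.944 times the control after the shift was taken off. Tagln, an actin-binding gene, was 2-fold lower on both scales, with 345.9 on the KO array and 707.9 on the control array (-1.46). Col1a1, an abundant fibroblast collagen, had 80.2 on the KO array and 94.3 on the control array, near both floors (-0.66). Vim (0.54), Col5a1 (0.37) and Thy1 (0.27) lay above the shift, and the list median was -0.13. Of 14 endoderm markers, Sox7, Afp, Ttr and Apoa1 did not reach either floor. The summed signal was 4724.9 on the KO array and 2947.4 on the control array, 1.60-fold higher as deposited and 1.19-fold relative to the shift. Of the 10 measured endoderm markers, 7 lay above the shift. The 3 below it were Gata4 (-0.54 or below), Gata6 (-0.37 or below) and Foxa2 (-0.18). Of 11 trophoblast markers, Elf5, Gata3 and Tpbpa did not reach either floor, and the summed signal was 5289.4 on the KO array and 2841.6 on the control array, 1.86-fold higher as deposited and 1.39-fold relative to the shift. In that list Tfap2c (1.23), Krt7 (at least 1.17) and Plac1 (1.03) were 2-fold higher, beside 1.09% of all genes. Of its 8 measured genes, 6 lay above the shift. The 2 below it were Eomes (-0.27, and 0.07 in its other probe set) and Cdx2 (-0.36 or below). Cdx2 had 54.1 on the KO array, below the floor, and 70.7 on the control array. The 7 mesoderm markers summed to 398.9 on the KO array and 458.0 on the control array. No marker of these lists was at 0 on both arrays. The part of such cells in the H19 value was not tested.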

How the data were processed

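The authors deposited linear signal intensities that were computed with MAS5, per the submitters' processing notes. No source used here gives the scaling target or detection calls. The 2% trimmed mean was 247 on the KO array and 184 on the control array, so the arrays did not share a level. Of 45101 probe sets, 64 Affymetrix controls were left out. The platform annotation gave 34958 probe sets 1 symbol, 932 several and 9211 none, and current symbols came from RefSeq (GRCm38.p6) by gene identifier, which matched 34741 of the 34945 with 1 symbol that were not controls. Signals below the array median were raised to it and log2 ratios taken. The median ratio over genes above both floors was subtracted. Each gene took the value of its brightest probe set, and H19 that of the probe set it shares with Mir675, which took no part in the median or in the counts over all genes. Called means at least 2-fold, with no test, since each group has 1 array. Named were all members, every listed gene past 2-fold, the 3 with the largest ratios of most lists (in the others some of these are left out), the adjacent genes, and the 3 nearest genes per member. Genes named beside these were chosen after their values were seen. The members and lists were chosen with earlier results of these data known. Alternatives covered the scaling, the floor, the probe set rule and the fold. The code, in Python 3.11.15 with pandas 2.3.3, was tested on simulated data.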

Additional observations from a re-analysis of the deposited data

How the results depend on the processing

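The H19/Mir675 log2 ratio lay between 3.06 and 3.51 over the 8 alternative settings of scaling, floor and probe set, and H19 was past 2-fold in each, also at 3-fold. Igf2 lay between -0.73 and, as deposited, -0.29, with -0.41 or below for a floor at the 75th percentile, which its KO signal did not reach, and -0.39 for the mean over probe sets. Igf2r lay between 0.18 and, as deposited, 0.63. No member changed sign. At 1.5-fold, 1 chromosome 7 member was also lower, namely Igf2. With a floor at the 25th percentile and with no floor, 1 chromosome 17 member was lower, namely Slc22a2, whose log2 ratio was then -1.30 or below and -2.97. Airn was then at -0.50 and -0.47, from its brightest probe set alone (43.8 on the KO array and 46.7 on the control array). Another Airn probe set went the other way, with 41.7 on the KO array and 18.2 on the control array. Over all genes, 133 were 2-fold higher and 65 lower, against 602 and 12 as deposited. The 1.5-fold threshold gave 579 and 519, and 3-fold gave 32 and 6. With the lower floor (25th percentile) 361 were higher and 386 lower, with the higher floor (75th) 48 and 12, and without any floor 846 and 1049. The mean over probe sets gave 25 lower. No paired analysis was possible because each group has 1 array. The number of arrays limits every value, and signals under the floor limit Airn and Slc22a2.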
